A study of Mus musculus with 8 samples.

Results

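The T cell receptor reads antigen through its variable chains and passes the signal through the CD3 chains, and 40 genes of this receptor complex and of the signalling steps closest to it were examined by ribosome footprinting. The genes were chosen by name and role, by a rule that uses no measured value, though the list was drawn up with earlier results of these data known, and all 40 were found among the 23156 genes measured. By role, 25 are activating parts, 12 are negative regulators and 3 act in both directions. A footprint is the piece of mRNA left under a ribosome after nuclease digestion, so a gene's footprint level reflects both its mRNA and how densely ribosomes occupy it.

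Naive CD4+ T cells, helper cells that have not met their antigen, came from C57BL/6 mice that were wildtype (WT) or Mettl3 knockout (KO), with 2 footprint libraries for each genotype. Mettl3 is the methyltransferase that places N6-methyladenosine on mRNA, and the series asks how its loss affects ribosome occupancy and translation. Cells of both genotypes were held in cycloheximide at 0.1 mg/ml for 1 min, which stalls ribosomes. The labels give no age of the mice, no allele, no driver of the deletion and no statement that the 2 libraries came from separate animals, and the p-values therefore reflect library-to-library spread, which may be purely technical. The input RNA libraries were not analysed here, and a footprint difference therefore cannot be divided into mRNA and translation.

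When a receptor binds its ligand, the kinase Lck, held near by the coreceptor CD4, phosphorylates paired tyrosines in the CD3 chains, and the kinase ZAP-70 docks there. ZAP-70 then phosphorylates the adaptors LAT and SLP-76, which gather the enzymes that release calcium, activate Ras and open the routes to NFAT and NF-kB. Phosphatases, ubiquitin ligases and lipid kinases hold this cascade down in resting cells, and CD5 tunes it to the strength of self-recognition.

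Levels are given as FPKM, fragments counted per kilobase of transcript and relative to library size, and a fold change is the KO minus the WT mean of log2(FPKM + 1). Depth, estimated from the value of 1 read, ran from 2820000 reads (KO library 2) to 5860000 reads (KO library 1), with 5690000 for WT library 1 and 3410000 for WT library 2. Mettl3 itself (chromosome 14, 52294841 to 52305128) had 24.5 and 21.1 FPKM in the WT libraries against 2.44 and 3.32 in the KO libraries (a difference of -2.62 on the log2 scale with an SE of 0.18, limma adjusted p = 0.00208). The adjusted p was 0.0509 without KO library 2 and 0.166 with no filter on low genes. Its exons overlap those of Tox4 on the other strand. Small RNA genes held 43.7% and 37.0% of summed FPKM in WT and 55.7% and 49.4% in KO, and across the 9272 other genes tested the median log2 fold change was -0.10. Of the effector T cell markers 6 of 7 rose (14.4 and 16.7 FPKM summed over the list in WT libraries, 50.9 and 85.1 in KO libraries), and no marker on the other lists passed the threshold. Of these others, Pax5 of B cells, Ncr1 of NK cells and Rag1 of thymocytes were listed at 0 in every library, and Cd8a stayed between 0.369 and 0.551 FPKM. Lower in sum were B cell markers in KO library 1 alone (26.3 and 17.6 FPKM in the WT libraries against 7.84 and 19.0 in the KO libraries) and thymocyte markers in both KO libraries (6.84 and 6.64 FPKM summed for WT, 4.28 and 4.04 for KO). Myeloid markers were also lower in sum in both KO libraries (19.5 and 20.1 FPKM summed for WT, 13.2 and 19.1 for KO), with KO library 2 close to WT. Lyz2, the most abundant myeloid marker, overlapped between genotypes (18.0 and 14.8 FPKM in WT, 10.6 and 15.8 in KO). Higher in sum in both KO libraries were NK cell markers (8.88 and 15.4 FPKM summed for WT, 16.8 and 22.3 for KO), but the genes of this list were split. Nkg7 (3.13 and 8.11 FPKM in WT, 10.99 and 16.1 in KO) and Eomes were higher in both KO libraries. Klrk1 (1.72 and 1.78 FPKM in WT, 1.04 and 1.14 in KO), Klrb1c and Klra8 were lower in both. Erythroid markers varied within each genotype (5.25 and 21.9, then 9.54 and 44.6).

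None of the 40 genes passed the threshold of an adjusted p under 0.05 in either direction (limma, adjusted over all 9272 genes), where 2.22% of all genes tested did, 1.56% higher and 0.658% lower. At an unadjusted p under 0.05, 9 of the 40 were lower and 0 higher, against 12.2% lower and 6.23% higher among all genes. The lowest adjusted p was 0.0805, for Ptpn6. Both KO libraries lay below both WT libraries at 22 of the 40 genes (34.6% of all genes) and above them at 3 (16.3% of all genes). The median log2 fold change of the 40 was -0.16, with a range of -0.75 to 0.47. With libraries centred on their medians it was -0.07, beside -0.01 for all genes, and with FPKM rescaled to leave out small RNA genes it was -0.08, beside -0.03. A smallest two-sided p of 0.333 is all that a permutation of 2 against 2 libraries allows, so no permutation test was used. Each mean ± SD that follows is over 2 libraries of a genotype.

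Activating parts and negative regulators had similar middles. The 25 activating genes had a median of -0.14 (-0.10 over all genes tested), and 13 of them had both KO libraries lowest (34.6% of all genes tested). The 12 negative regulators had a median of -0.18, and 7 had both KO libraries lowest, beside the same 34.6% of all genes tested. With centred libraries these medians were -0.04 and -0.09, and rescaled without small RNA genes they were -0.06 and -0.10. Summed over the activating genes, WT libraries held 1268 and 1396 FPKM and KO libraries 1120 and 1207 FPKM, so that the KO mean was 87.3% of the WT mean. The summed level of the negative regulators was 532 and 523 FPKM in the WT libraries against 453 and 469.8 in the KO libraries, or 87.5%. In both classes the KO libraries lay below the WT libraries. The largest terms were Ptprc (WT mean 367 FPKM) and Dgka (176 FPKM). Summed T cell markers overlapped between genotypes (433 and 498 FPKM in WT, 456 and 529 in KO), with Il7r higher and Cd2, Cd28 and Lef1 lower in both KO libraries. The KO effector T cell genes and small RNA share above stood higher in the same libraries. The part of these in the sums of the 2 classes was not tested. In cell populations, fewer cells of a type and less footprint signal per cell cannot be told apart.

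**Figure D1:**
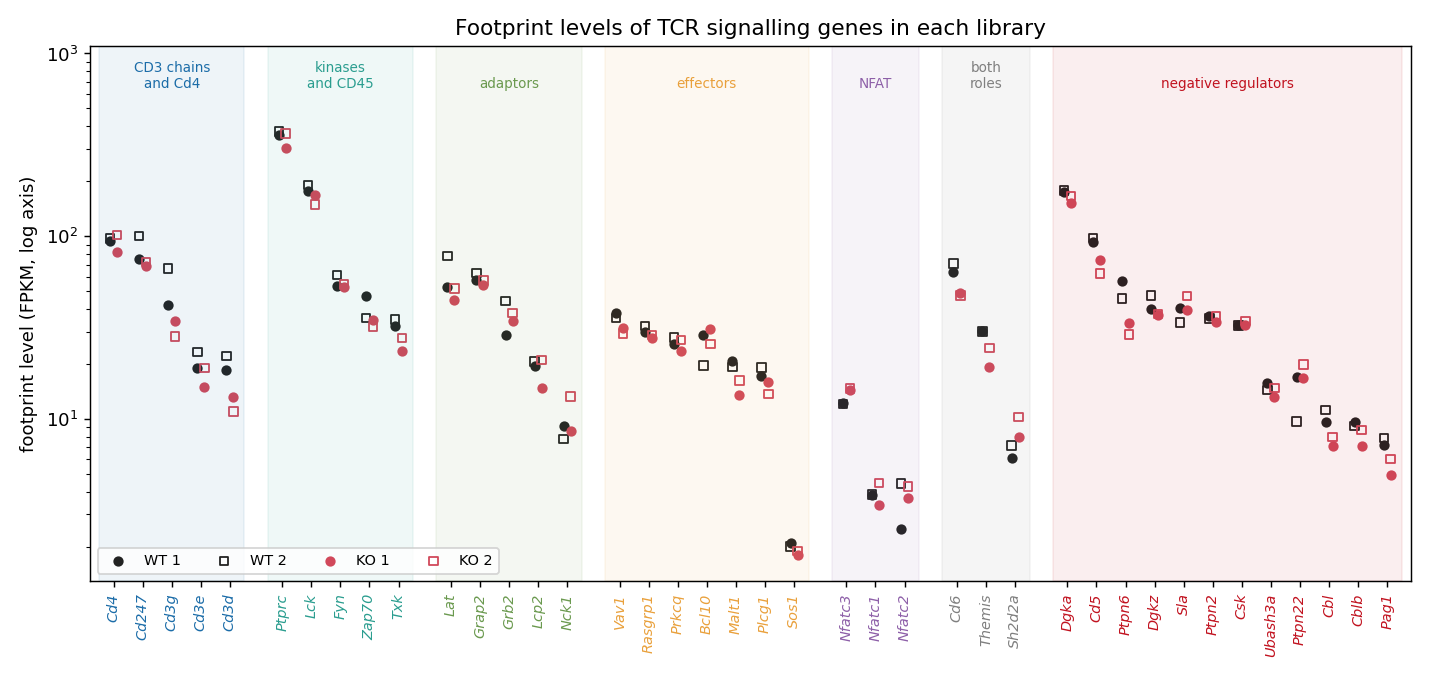
Footprint level (FPKM, log axis) of each of the 40 genes in the 4 libraries, ordered by role and then by WT mean. Black marks are WT and red marks KO, filled circles for library 1 and open squares for library 2; Ptprc is highest at 305 to 375 FPKM and Sos1 lowest at 1.81 to 2.09 FPKM.

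Of the receptor chains, Cd3g and Cd3d had the 2 lowest log2 fold changes of the 40 genes, and Cd4 lay near 0. Cd3d, Cd3g and Cd3e encode the delta, gamma and epsilon chains and lie together on chromosome 9 (GENCODE M21, GRCm38), Cd3g at 44969572 to 44980431 on the minus strand, Cd3d at 44981786 to 44987339 on the plus strand and Cd3e at 44998740 to 45009627 on the minus strand. The starts of Cd3g and Cd3d are 1355 bases apart and point away from each other. Because these neighbours include the largest differences among the 40 genes, the 250 bases before each start are shown (RefSeq, GRCm38.p6, each 5′ to 3′ on its gene's strand). Capitals mark every match, on either strand, to AGGAAG (a sequence that ETS factors bind), CACCTG (an E-box that E proteins bind) or GGGCGG (the GC box of Sp1). TATAAA and the Runx core ACCACA were also searched and had no match in these windows. Only these exact letters were searched, so shorter or variant forms of a site are not marked. The windows are chr9:44981536-44981785 for Cd3d, chr9:44980432-44980681 for Cd3g and chr9:45009612-45009861 for Cd3e. For Cd3e the RefSeq start lies inside the GENCODE span, so its window takes in the last bases of that span, which ends at 45009627.
Cd3d: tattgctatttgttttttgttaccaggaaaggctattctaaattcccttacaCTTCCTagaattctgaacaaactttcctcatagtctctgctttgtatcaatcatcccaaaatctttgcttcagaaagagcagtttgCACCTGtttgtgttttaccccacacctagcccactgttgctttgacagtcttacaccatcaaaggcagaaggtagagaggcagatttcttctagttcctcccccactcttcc
Cd3g: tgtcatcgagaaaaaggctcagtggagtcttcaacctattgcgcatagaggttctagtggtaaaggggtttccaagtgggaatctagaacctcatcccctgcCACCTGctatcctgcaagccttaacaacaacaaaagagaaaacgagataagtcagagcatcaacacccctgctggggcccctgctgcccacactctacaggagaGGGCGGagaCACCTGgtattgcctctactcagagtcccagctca
Cd3e: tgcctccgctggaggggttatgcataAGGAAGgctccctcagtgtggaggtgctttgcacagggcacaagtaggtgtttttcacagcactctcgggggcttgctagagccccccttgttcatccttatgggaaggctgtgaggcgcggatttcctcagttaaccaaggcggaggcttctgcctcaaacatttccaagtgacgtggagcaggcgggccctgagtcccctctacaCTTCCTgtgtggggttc
Marked matches do not overlap one another. CACCTG had 1 match in Cd3d, 2 in Cd3g and none in Cd3e, while AGGAAG had 1 match in Cd3d, 2 in Cd3e and none in Cd3g. Over 27025 genes with such a window, AGGAAG was present in 29.2%, GGGCGG in 32.7%, CACCTG in 17.1%, ACCACA in 14.2% and TATAAA in 12.9%. Among the 32 of the 40 genes with a window, 20 held AGGAAG, 15 GGGCGG, 11 CACCTG, 2 ACCACA and 1 TATAAA. A match describes letters and is not a bound site, and a link between these matches and the footprint differences was not tested.

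Cd3d stood at 18.6 (WT library 1), 22.1 (WT library 2), 13.2 (KO library 1) and 10.98 FPKM (KO library 2). Both KO libraries were below both WT libraries, and the mean went from 20.4 ± 2.49 to 12.1 ± 1.57 FPKM (SD, n = 2). That is a log2 difference of -0.71 (SE 0.16, 95% interval -1.09 to -0.32, limma adjusted p = 0.0881). It was the 1 gene of the 40 that passed the threshold under any alternative, when the test was limited to genes of at least 5 FPKM (limma adjusted p = 0.0491, within a range of 0.0491 to 0.372). Few reads stand behind it, about 171 and 122 in WT and 125 and 50 in KO, and a count of 50 alone has a counting error of 14.1%.

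Cd3g had 42.2 and 66.4 FPKM in the WT libraries against 34.2 and 28.2 in the KO libraries. The groups did not overlap, but the WT libraries differed by a factor of 1.57, more than WT library 1 differed from either KO library. The log2 fold change was -0.75 (SE 0.22, 95% interval -1.27 to -0.23, limma adjusted p = 0.139), the largest in size of the 40, and it was -0.43 without WT library 2 and -1.07 without WT library 1. Cd3e, the chain shared by the gamma-epsilon and delta-epsilon dimers, had 18.9 (WT library 1), 23.3 (WT library 2), 15.0 (KO library 1) and 19.0 FPKM (KO library 2), and its groups overlapped (log2 fold change -0.30, 95% interval -0.71 to 0.12). The Cd3g to Cd3e ratio, at 2.23 and 2.86 in WT, was 2.29 and 1.48 in KO, so that KO library 2 stood apart and KO library 1 lay within the WT range. The Cd3g to Cd3d ratio, at 2.27 and 3.002 in WT, was 2.59 and 2.57 in KO, with the KO values between the WT values.

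Cd247 encodes the zeta chain, which carries most of the receptor's signalling motifs, and lies on chromosome 1 at 165788681 to 165877277. It had 75.1 and 100.0 FPKM in the WT libraries against 68.5 and 72.4 in the KO libraries, with WT library 2 above the other libraries (log2 fold change -0.30, 95% interval -0.66 to 0.07). The fold change was -0.09 without WT library 2 and -0.50 without WT library 1. Cd4, the coreceptor, had 94.6 (WT library 1), 97.1 (WT library 2), 82.0 (KO library 1) and 101 FPKM (KO library 2) (-0.07, 95% interval -0.39 to 0.25). Its KO values lay on either side of the WT values, and its sign turned with the scaling (0.02 with centred libraries, 0.01 rescaled without small RNA genes).

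Because FPKM divides by the whole gene model while footprints fall on the coding part, levels were also set per kilobase of coding sequence, with transcript lengths of the annotation in place of the authors' own. On that scale the WT means were 419 for Cd247, 217 for Cd4, 102 for Cd3g, 63.4 for Cd3d and 54.3 for Cd3e. Cd247 stayed highest of the CD3 chains, and Cd3d and Cd3e changed places, with WT libraries that overlap (57.9 and 68.9 for Cd3d, 48.7 and 60.0 for Cd3e). In KO, Cd3e had 43.9 and Cd3d 37.7, again with overlapping libraries (38.6 and 49.1 for Cd3e, 41.1 and 34.2 for Cd3d).

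**Figure D2:**
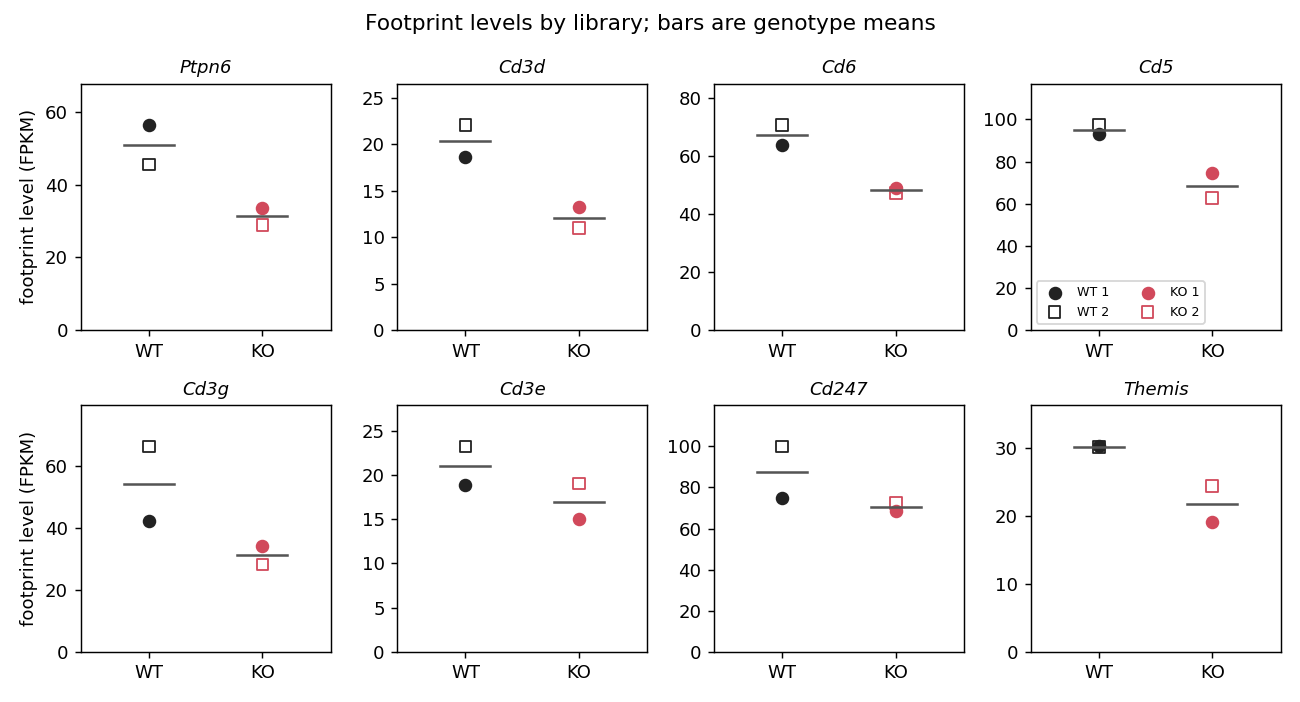
Footprint level (FPKM, linear axis from 0) in each library for Ptpn6, Cd3d, Cd6, Cd5, Cd3g, Cd3e, Cd247 and Themis, with a bar at each genotype's mean. Cd3e overlaps between genotypes, the other genes do not, and none of the genes shown passed the threshold. Among all genes tested, 34.6% had both KO libraries below both WT libraries. Ptpn6, Cd3d, Cd6, Cd5, Cd3g and Themis had the smallest p (limma) of the receptor and signalling genes examined. The lack of overlap among the genes shown is therefore not representative of all the genes examined.

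The kinase genes and Ptprc had log2 fold changes of -0.38 to -0.10, and none passed the threshold. Lck (chromosome 4, 129548344 to 129573641) had 178 and 191 FPKM in the WT libraries against 168 and 149 in the KO libraries, a log2 fold change of -0.22 with a 95% interval of -0.49 to 0.06. Fyn, the other Src family kinase of T cells, averaged 57.5 ± 5.39 FPKM (WT) and 53.4 ± 1.38 FPKM (KO). Zap70 had 47.3 (WT library 1), 35.6 (WT library 2), 34.6 (KO library 1) and 31.8 FPKM (KO library 2) (-0.30, 95% interval -0.68 to 0.09), so that WT library 1 alone stood well above the rest. Without WT library 1 its log2 fold change was -0.10, and without WT library 2 it was -0.50. Txk, a Tec family kinase gene on chromosome 5 at 72695978 to 72752777, had 32.4 and 35.0 FPKM in the WT libraries against 23.7 and 27.7 in the KO libraries (-0.38, SE 0.14, limma adjusted p = 0.212). Ptprc encodes CD45, the phosphatase that keeps Lck ready, and it was the most abundant of the 40 genes. It had 359 (WT library 1), 375 (WT library 2), 305 (KO library 1) and 364 FPKM (KO library 2), and its groups overlapped (-0.14, 95% interval -0.42 to 0.15).

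Of the 5 adaptors, Lat and Grap2 had both KO libraries lowest (34.6% of all genes tested) and the other genes overlapped between genotypes. Lat, the membrane scaffold, had 53.0 and 77.8 FPKM in the WT libraries against 44.5 and 51.8 in the KO libraries, with the KO libraries just below WT library 1 and far below WT library 2 (-0.41, 95% interval -0.87 to 0.04). The value was -0.14 without WT library 2 and -0.68 without WT library 1. Grap2, which encodes GADS, the link from LAT to SLP-76, had 57.4 (WT library 1), 62.8 (WT library 2), 54.0 (KO library 1) and 57.1 FPKM (KO library 2) (-0.11, 95% interval -0.40 to 0.18). Lcp2, the SLP-76 gene, averaged 20.04 ± 0.762 FPKM (WT) and 17.9 ± 4.41 FPKM (KO). Grb2, which brings Sos to LAT, averaged 36.6 ± 10.9 FPKM (WT) and 36.2 ± 2.60 FPKM (KO). Nck1, an adaptor to the actin machinery, had 9.13 and 7.78 FPKM in the WT libraries against 8.58 and 13.3 in the KO libraries, with KO library 2 alone above the others.

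Among the effectors downstream, 6 of 7 had a log2 fold change below 0 (63.4% of all genes tested) and 5 had both KO libraries lowest (34.6% of all genes tested). Malt1, the protease of the complex that leads to NF-kB, had 20.8 (WT library 1), 19.2 (WT library 2), 13.5 (KO library 1) and 16.2 FPKM (KO library 2) (-0.41, SE 0.15, limma adjusted p = 0.221), whereas its partner Bcl10 averaged 24.2 ± 6.52 FPKM (WT) and 28.5 ± 3.92 FPKM (KO). Vav1, an exchange factor for Rac, had 38.2 and 35.7 FPKM in the WT libraries against 31.5 and 29.4 in the KO libraries (-0.27, 95% interval -0.57 to 0.03). Plcg1, the phospholipase that makes the calcium and diacylglycerol signals, averaged 18.1 ± 1.399 FPKM (WT) and 14.9 ± 1.59 FPKM (KO). Prkcq, the protein kinase C of the T cell synapse, had 26.7 ± 1.67 and 25.3 ± 2.50 FPKM, and Rasgrp1, the diacylglycerol-driven activator of Ras, 31.0 ± 1.62 and 28.2 ± 0.721 FPKM. Sos1, the other activator of Ras, was the least abundant of the 40, at 2.09 (WT library 1), 2.01 (WT library 2), 1.81 (KO library 1) and 1.89 FPKM (KO library 2).

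The NFAT genes, whose products move to the nucleus when calcium rises, were the 1 role with a log2 fold change above 0 in each member. This role holds 3 genes, and among all 9272 genes tested 3390 had a log2 fold change above 0. Nfatc3 had 12.2 and 12.1 FPKM in the WT libraries against 14.3 and 14.7 in the KO libraries, 2 groups that did not overlap (0.24, 95% interval -0.09 to 0.57). Nfatc2 had 2.51 (WT library 1), 4.43 (WT library 2), 3.69 (KO library 1) and 4.27 FPKM (KO library 2), and the WT libraries enclosed the KO libraries. Nfatc1 averaged 3.85 ± 0.0231 FPKM (WT) and 3.92 ± 0.765 FPKM (KO), with a log2 fold change near 0 (0.01, 95% interval -0.45 to 0.48). Leaving out WT library 1 turned Nfatc2 to -0.13, and leaving out KO library 2 turned Nfatc1 to -0.15.

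**Figure D3:**
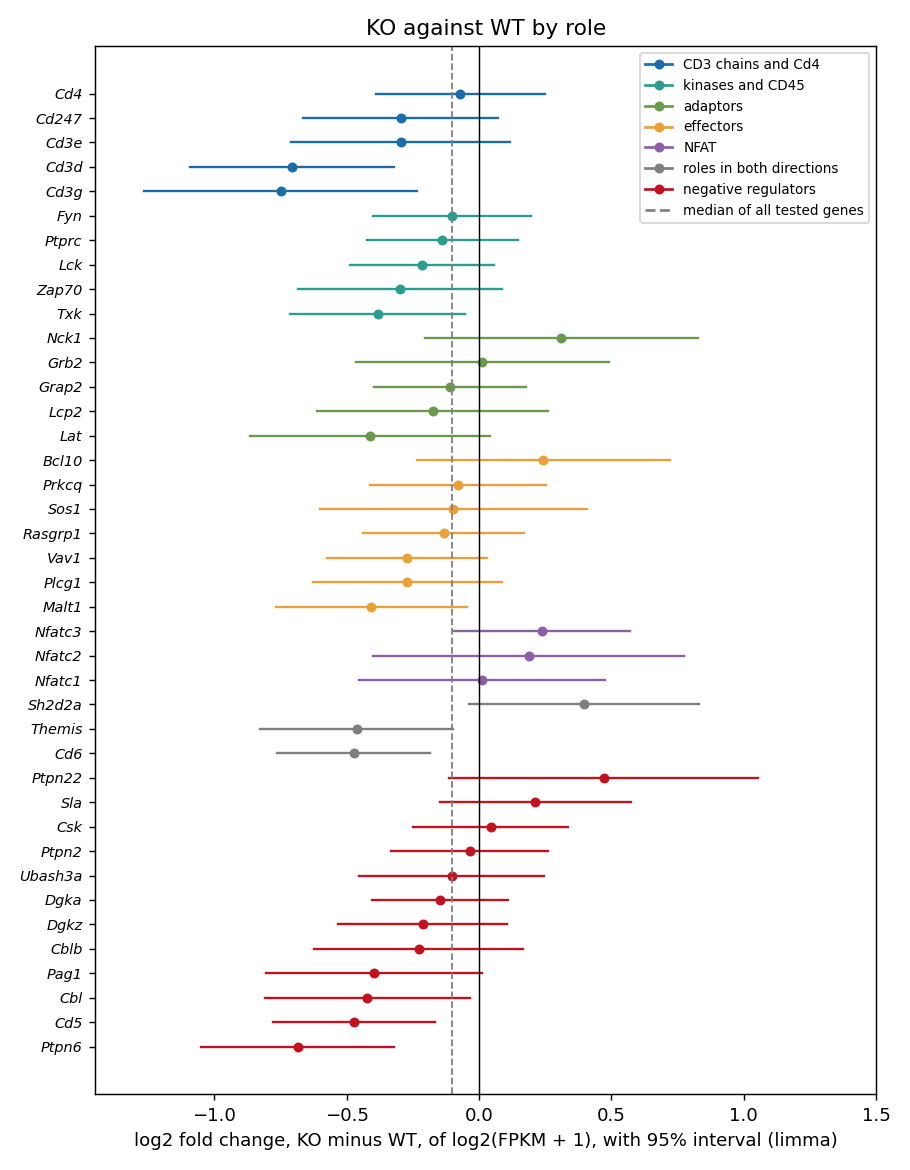
Log2 fold change (KO minus WT) with its 95% interval from limma for each of the 40 genes, coloured by role, with the median of all tested genes as a dashed line at -0.10. Intervals of 9 genes lie wholly below 0 and none lies wholly above 0, and no gene passed the adjusted threshold. Among all genes tested, the interval lay wholly below 0 for 12.2% and wholly above 0 for 6.23%.

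Of the 3 genes with roles in both directions, Cd6 and Themis had lower values in KO and Sh2d2a higher ones. Cd6, a scavenger-receptor-like surface protein of the immune synapse, had 63.8 and 70.8 FPKM in the WT libraries against 49.1 and 47.3 in the KO libraries. The groups were well apart, with -0.47 on the log2 scale (SE 0.12, 95% interval -0.76 to -0.18, limma adjusted p = 0.109). Themis, a regulator of signal strength needed in thymic selection, had 30.3 (WT library 1), 30.2 (WT library 2), 19.2 (KO library 1) and 24.4 FPKM (KO library 2) (-0.46, SE 0.16, limma adjusted p = 0.185). Sh2d2a, the TSAd adaptor that binds Lck, had 6.11 and 7.15 FPKM in the WT libraries against 7.92 and 10.2 in the KO libraries (0.40, 95% interval -0.04 to 0.83), and its smallest library held about 44 reads.

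Ptpn6 had the smallest p of the negative regulators and of all 40 genes. It encodes SHP-1, a phosphatase that acts on Lck and ZAP-70, and lies on chromosome 6 at 124720707 to 124738714. It stood at 56.5 (WT library 1), 45.5 (WT library 2), 33.5 (KO library 1) and 29.0 FPKM (KO library 2). The KO libraries lay below both WT libraries, and the mean went from 51.0 ± 7.78 to 31.2 ± 3.23 FPKM (SD, n = 2). That is a log2 difference of -0.69 (SE 0.16, 95% interval -1.05 to -0.32, limma adjusted p = 0.0805). Over its alternatives the adjusted p ran from 0.0522 to 0.363 and the log2 fold change from -0.84 to -0.53. An exon of Ptpn6 overlaps Gm20531 on the other strand, and because nothing used here says whether strand was counted, reads of the pair cannot be told apart.

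Cd5, a surface receptor that dampens receptor signals and whose level follows their strength, is a neighbour of Cd6 on chromosome 19 (10717116 to 10739002 for Cd5, 10789341 to 10830058 for Cd6). It had 92.9 and 97.5 FPKM in the WT libraries against 74.5 and 62.6 in the KO libraries, with no overlap (-0.47, SE 0.13, 95% interval -0.78 to -0.17, limma adjusted p = 0.124). The Cd5 to Cd6 ratio, at 1.46 and 1.38 in WT, was 1.52 and 1.32 in KO, so the KO values enclosed the WT values.

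The ubiquitin ligase gene Cbl averaged 10.4 ± 1.16 FPKM (WT) and 7.51 ± 0.613 FPKM (KO) (-0.42), and its relative Cblb had 9.39 ± 0.309 and 7.90 ± 1.15 FPKM (-0.23). Pag1, the membrane anchor of the kinase CSK, had 7.20 (WT library 1), 7.85 (WT library 2), 4.96 (KO library 1) and 6.02 FPKM (KO library 2) (-0.40, 95% interval -0.81 to 0.01). Csk itself, which switches Lck off, averaged 32.6 ± 0.087 FPKM (WT) and 33.6 ± 1.15 FPKM (KO) (0.04, 95% interval -0.25 to 0.34). Of the 2 diacylglycerol kinase genes, which remove the lipid that activates Rasgrp1, Dgka had 174 and 178 FPKM in the WT libraries against 153 and 166 in the KO libraries (-0.15, 95% interval -0.40 to 0.11). Dgkz had 43.6 ± 5.22 and 37.3 ± 0.172 FPKM (-0.21).

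Ptpn22, a phosphatase that works with CSK, had the highest log2 fold change of the 40 (0.47, 95% interval -0.11 to 1.06), at 16.9 (WT library 1), 9.68 (WT library 2), 16.7 (KO library 1) and 19.8 FPKM (KO library 2). WT library 2 alone was low, and without it the value was 0.10. Sla, the SLAP adaptor that lowers surface receptor, averaged 37.1 ± 4.71 FPKM (WT) and 43.2 ± 5.49 FPKM (KO). Ptpn2, a phosphatase that acts on Lck and JAK kinases, had 36.0 ± 0.743 and 35.2 ± 1.82 FPKM, and Ubash3a, a suppressor of ZAP-70 signalling, 15.1 ± 0.972 and 14.0 ± 1.11 FPKM.

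Exons of 9 of the 40 genes, Cd3e, Cd247, Lcp2, Plcg1, Nfatc3, Themis, Ptpn6, Dgka and Dgkz, overlap a gene on the other strand, so their reads are uncertain in the same way as those of Ptpn6. Reads behind the values differed widely among the genes. The library with the fewest reads held about 44 reads for Sh2d2a and about 5211 for Ptprc, with a median of about 231 over the 40 genes. The WT libraries differed by more than 1.5 times at Cd3g, Grb2, Nfatc2 and Ptpn22, and the KO libraries at Nck1. The 95% interval lay within 0.5 of 0 on the log2 scale for 13 genes, among them Cd4, Lck, Fyn, Ptprc, Dgka and Csk, and within 1 of 0 for 36. Of all 9272 genes tested, 1681 had an interval within 0.5 of 0 and 7664 within 1 of 0. The 40 genes had high levels, with a median at percentile 87.3 of all genes tested. The interval reached beyond -1 for Cd3d, Cd3g and Ptpn6 and beyond 1 for Ptpn22.

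**Figure D4:**
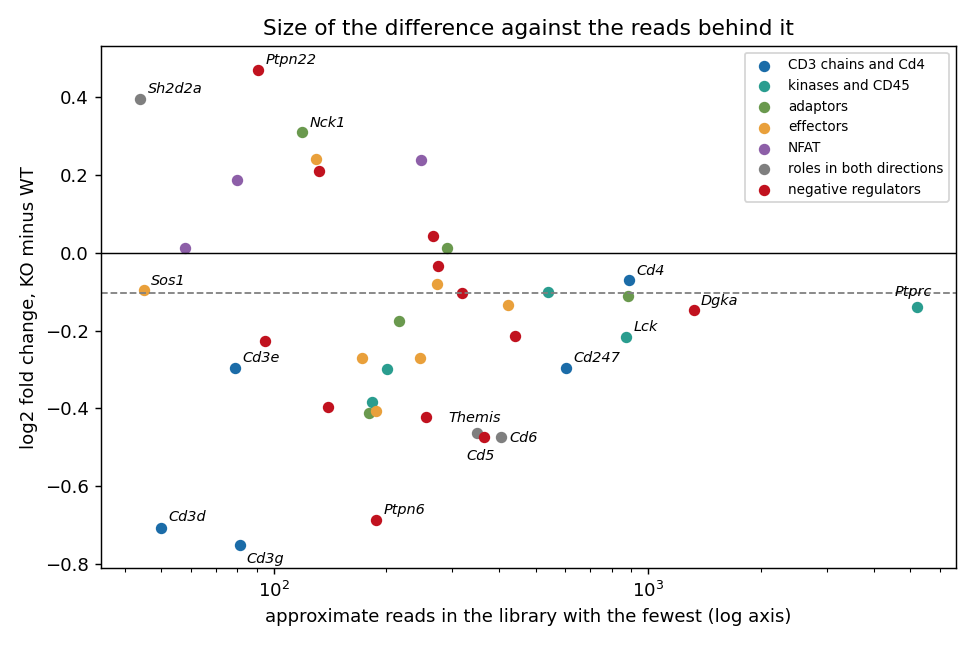
Log2 fold change (KO minus WT) of each of the 40 genes against the approximate number of reads in the library that held the fewest (log axis), coloured by role; the dashed line is the median of all tested genes. Cd3d, with about 50 reads, and Cd3g, with about 81, have the lowest values, and the 3 genes with the most reads, Ptprc, Dgka and Cd4, lie between -0.15 and -0.07. Other genes differ from this order: Sos1, with about 45 reads, is at -0.10, Nfatc1, with about 58, at 0.01, and Ptpn6, with about 188, at -0.69.

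Of 78 further genes of the pathway, 67 were tested, and 1 rose and 1 fell (limma; 1.56% higher and 0.658% lower among all genes). At an unadjusted p under 0.05, 15 were lower (22.4%, against 12.2% of all genes) and 5 higher (7.46%, against 6.23% of all genes). The median log2 fold change of the 67 was -0.17, beside -0.10 for all genes tested. Ppp3cc, a catalytic subunit of the calcineurin that releases NFAT (chromosome 14, 70217865 to 70289471), rose from 27.7 and 30.8 FPKM in WT to 58.3 and 65.9 FPKM in KO (1.06, SE 0.13, limma adjusted p = 0.0142). Without any 1 library its adjusted p was 0.0643 to 0.178, above the threshold each time, and it was 0.195 with no filter and 0.0605 without a variance trend. Its exons overlap Gm49417 on the other strand.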

How the data were processed

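Ribosome footprints of naive CD4+ T cells were measured in 2 WT and 2 Mettl3 KO libraries. The authors deposited FPKM, 1 column for each library, per the file headers; per the submitters' processing notes, TopHat, Cuffdiff and mm10 (GRCm38) were used. For versions, annotation, strand and scaling: not given in the sources used here. Per the labels' protocols, libraries had 9 PCR cycles.

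The 1210 genes with small RNA symbols were dropped, and the 9272 others whose mean reached 1 FPKM were tested on log2(FPKM + 1) with limma 3.58.1 in R 4.3.3 (trend, two-sided, 2 residual and 5.2 prior degrees of freedom), with Benjamini-Hochberg adjustment over these genes and a threshold of 0.05. All 40 members were among them. Depth was estimated from low values of 3807 genes with 1 annotated transcript; approximate reads use GENCODE M21 transcript lengths, not the authors', and their errors cover counting only. The fit was tested on 10 simulated data sets with 200 changed genes of at least 5 FPKM each. Of changes of 0.5 on the log2 scale 1.2% were called, of 0.75 14.4%, of 1 48.4% and of 2 97.6%. In this simulated setting, changes of the size seen in the members were therefore mostly missed. The data held 1707 genes with an unadjusted limma p under 0.05, more than the 200 changed genes simulated. The adjusted cutoff depends on that number, so the share found in the data may differ. Figures used Python 3.11.15 and matplotlib 3.10.9.

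Members, gene lists and tests were chosen with earlier results of these data known, although the rule for members uses no measured value. Values in every library are given for the receptor chains, Lck, Zap70, Lat, Ptprc, the 8 genes of smallest p and the highest and lowest gene of each role. Ptpn22 was added after its values were seen. Alternatives changed the pseudocount, filter, scaling, small RNA genes, trend, replicate block and each library in turn. The values of 1 further pathway gene are not reported here.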

Additional observations from a re-analysis of the deposited data

How the results depend on the processing

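No member passed the threshold in 12 of 13 alternatives. With genes of at least 5 FPKM 1 member, an activating one, passed, lower in KO, and 101 of all genes were lower. Over all genes, the counts higher and lower in KO were 0 and 0 with no filter on low genes (2061 of 15459 had an unadjusted limma p under 0.05), 56 and 27 with small RNA genes kept, and 47 and 21 without a variance trend. With centred libraries, 80.5% of called genes were higher, against 70.4% as reported. Leaving out 1 library gave 1 to 37 higher and 0 to 21 lower; without KO library 2 it was 1 and 0. A lone library was then assumed to vary like the other genotype. Of the other pathway genes, 2 were lower with a pseudocount of 5; 0 were lower with centred or rescaled libraries, small RNA genes kept or the replicate block; 0 were called either way with no filter, without a trend, or without any 1 library.

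The median log2 fold change was -0.0666 for the members, -0.0434 for activating genes, -0.0857 for negative regulators and -0.0081 for all genes with centred libraries, and -0.084, -0.0588, -0.102 and -0.0347 with rescaled ones. Leaving out 1 library gave -0.212 to -0.0925, -0.196 to -0.0753, -0.212 to -0.0925 and -0.146 to -0.0446. Of 517 values of members under alternatives, 14 of 8 genes turned sign, none past the threshold. With centred libraries these were Cd4 at 0.024, Prkcq at 0.0148 and Ptpn2 at 0.0601, and with rescaled ones Cd4 at 0.008 and Ptpn2 at 0.0428. Leaving out 1 library gave ranges of -0.2218 to 0.0803 for Cd4, -0.4154 to 0.0654 for Lcp2, -0.2875 to 0.3117 for Grb2, -0.1771 to 0.0173 for Prkcq, -0.0247 to 0.5086 for Bcl10, -0.1478 to 0.1709 for Nfatc1, -0.1269 to 0.5035 for Nfatc2 and -0.086 to 0.0169 for Ptpn2. The cause was not tested.

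The titles number libraries 1 and 2 in each genotype but do not say that a number marks a shared source, and deviations of same-numbered libraries had a correlation of -0.09. With the replicate block, 121 genes were higher and 49 lower, and no member was called. Depth limits Sh2d2a, Sos1, Cd3d and Nfatc1 most, with about 44, 45, 50 and 58 reads in their smallest library.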
